A study of Mus musculus with 16 samples.

Results

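The genes described here encode the subunits of oxidative phosphorylation, taken from both genomes of the mouse cell. They were chosen by name alone: every row whose symbol belongs to the Nduf, Sdh, Uqcr, *Cyc1*, Cox5 to Cox8 or Atp5 series, and the mitochondrially encoded mt-Nd, mt-Co, *mt-Cytb* and mt-Atp genes, with pseudogenes left out. This gave 96 of the 30386 genes of the deposited table, 83 encoded in nuclear DNA and 13 in mitochondrial DNA. The nuclear genes fell into 37 of complex I, 4 of complex II, 9 of complex III, 16 of complex IV and 17 named after complex V. The mitochondrial genes were 7 of complex I, 1 of complex III, 3 of complex IV and 2 of complex V. Of all 96, 91 had more than 1 CPM (reads of a gene scaled to a common library total) in at least 4 samples and were tested. *Cox8b*, *Cox8c*, *Cox7b2*, *Ndufa4l2* and *mt-Nd4l* stayed below that filter, with no value above 0.98 CPM.

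The study compared neural stem/progenitor cells (NSPCs) of the adult mouse subventricular zone that carried a constitutive *Dbx2* transgene (*Dbx2*-NSPCs, 8 samples) with cells that carried a control *GFP* transgene (*GFP*-NSPCs, 8 samples), to learn which transcripts change when this homeobox factor is overexpressed. Both groups came from C57BL/6J/Babr mice of 3 months of age, were transfected with a pTP6 plasmid, kept under puromycin and grown as neurospheres with EGF and FGF2. They were selected cell populations from 2 pairs of lines, and the labels do not say which line a sample belongs to. The labels number the samples 1 to 8 in each group, and the samples numbered 1 to 4 stood apart from those numbered 5 to 8 in both groups, so values are also given for each of these sets.

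Oxidative phosphorylation takes place in the inner mitochondrial membrane. Complexes I and II pass electrons from NADH and succinate to ubiquinone, complex III passes them on to cytochrome c and complex IV to oxygen, and the proton gradient built by complexes I, III and IV drives ATP synthesis by complex V. All subunits of complex II are encoded in the nucleus, whereas the catalytic core of the proton-pumping complexes is encoded partly in mitochondrial DNA, which is read from 2 long precursors that are then cut and polyadenylated. In the neurogenic lineage, quiescent stem cells are known to rely more on glycolysis and fatty acid oxidation, and oxidative phosphorylation is known to rise as the cells are activated and differentiate.

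Each sample held 1803928 to 3293285 reads, so that 3 reads, taken as the limit of detection, were worth 0.911 to 1.66 CPM. These limits cover counting error only. Reads of the *Dbx2* gene ran from 30.7 to 171 CPM in *GFP*-NSPCs and from 114 to 232 CPM in *Dbx2*-NSPCs. The ranges met because *GFP* samples 1 to 4 held 89.3 to 171 CPM. In the limma fits described below, *Dbx2* had a log2 fold change of 0.54 in samples 1 to 4 (adjusted p = 0.089). In samples 5 to 8 it was 1.99 (adjusted p = 5.7e-08), and the interaction of transgene and set was 1.45 (adjusted p = 1.0e-04). Which part of the transgene's reads falls on this gene in libraries of transcript ends is not given in the sources used here. The progenitor markers *Nes*, *Sox2*, *Vim* and *Egfr* exceeded 100 CPM in every sample, although 3 of the 8 markers of these cells (*Pax6*, *Egfr* and *Fabp7*) were lower in *Dbx2*-NSPCs. The 5 markers of microglia summed to at most 2.45 CPM and the 5 of endothelial and mural cells to at most 2.11 CPM, with *Aif1*, *Cdh5* and *Cldn5* at 0. Of 5 astrocyte markers, *Gfap* was higher in *Dbx2*-NSPCs and *Aldh1l1* and *Gja1* were lower, and they summed to 243 to 525 CPM in *GFP* samples and 120.5 to 260.1 CPM in *Dbx2* samples. Of 6 markers of the oligodendrocyte lineage, *Cnp* was higher, *Mog* was at 0 and *Mbp* did not exceed 2.87 CPM, and the list summed to 1374 to 1841 CPM and 1206 to 1517 CPM, most of it *Olig2*, which progenitors in culture also express. The 6 neuroblast and neuron markers summed to 13.3 to 40.1 CPM and 12.8 to 41.5 CPM, with *Stmn2* at 0. The ependymal markers *Ccdc153* and *Rarres2* were higher, and the 4 of that list summed to 10.3 to 25.8 CPM and 21.9 to 44.9 CPM, with *Tmem212* at 0 throughout. The part of such shifts in the results below was not tested, and in bulk RNA fewer cells of a type and less RNA per cell cannot be told apart.

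Tested by limma on log2(CPM + 0.5) over all 12533 genes that passed the filter, 1982 genes (15.8%) had a Benjamini-Hochberg adjusted p under 0.05 between *Dbx2*-NSPCs and *GFP*-NSPCs. Among the 91 members the count was 12, or 13.2%, with 6 higher and 6 lower in *Dbx2*-NSPCs. Over all tested genes, 8.03% were higher and 7.78% lower. The median log2 fold change (*Dbx2*-NSPCs minus *GFP*-NSPCs) was -0.03 over the members and -0.02 over all tested genes. The changes were unevenly placed. All 3 mitochondrial genes called were core subunits of complex I and were higher, and 5 of the 6 genes called lower lay on chromosome 10. The other of these 6, *Cox6a2*, passed the filter only through the *GFP* group, where it is high. With the replicate number as a block, limma called 19 members, 9 higher and 10 lower, beside 21.7% of all tested genes (10.8% higher and 10.9% lower), and these 19 held all 12. On the whole reads recovered from the CPM, edgeR called 10 members (15.4% of all tested genes) and DESeq2 13 (17.5%). Summed over the 83 nuclear genes, the members took 1.88% to 2.48% of the reads of a *GFP* sample and 1.90% to 2.43% of a *Dbx2* sample. The groups thus overlapped almost fully in the total. The sum of the 17 genes named after complex V was 5522 to 6795 CPM in *GFP*-NSPCs and 4894 to 6486 CPM in *Dbx2*-NSPCs, and that of the 37 nuclear genes of complex I 6223 to 8441 CPM and 6849 to 8375 CPM.

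**Figure D1:**
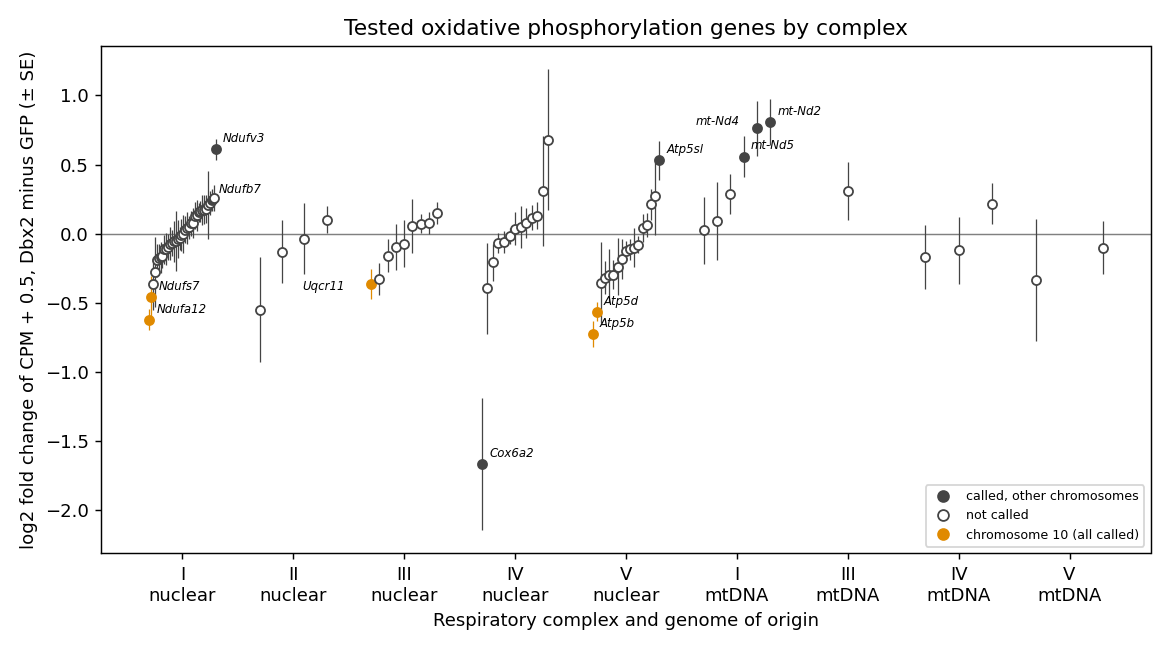
Each point is a tested gene, placed by its complex and genome of origin, with its log2 fold change of CPM + 0.5 (*Dbx2*-NSPCs minus *GFP*-NSPCs) on the vertical axis and the standard error as a bar. Filled points passed an adjusted p of 0.05 and orange points lie on chromosome 10. The points of chromosome 10 sit between -0.73 and -0.36, and *mt-Nd2*, *mt-Nd4* and *mt-Nd5* lie between 0.56 and 0.81.

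The promoters of the 4 nuclear genes whose groups did not overlap are shown here because these genes carry the clearest changes. The sequences are the 250 bases before the RefSeq start site on GRCm38.p6, read along the gene's strand, and capitals mark GGGCGG or its reverse complement, the core letters bound by SP1. *Atp5b* lies at chr10:128083057-128083306 (+), *Ndufa12* at chr10:94198785-94199034 (+), *Atp5d* at chr10:80142025-80142274 (+, the upstream one of its start sites) and *Ndufv3* at chr17:31519865-31520114 (+). In the GENCODE M21 annotation, transcripts of *Ndufa12* and *Atp5d* begin further upstream, so that these windows lie inside the gene as annotated, and the last bases of the *Atp5b* window do too.
Atp5b: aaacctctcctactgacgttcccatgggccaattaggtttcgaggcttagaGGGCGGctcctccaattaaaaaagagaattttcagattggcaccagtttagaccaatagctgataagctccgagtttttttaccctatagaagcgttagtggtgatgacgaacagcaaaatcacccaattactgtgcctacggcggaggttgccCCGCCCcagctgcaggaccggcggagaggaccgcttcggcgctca
Ndufa12: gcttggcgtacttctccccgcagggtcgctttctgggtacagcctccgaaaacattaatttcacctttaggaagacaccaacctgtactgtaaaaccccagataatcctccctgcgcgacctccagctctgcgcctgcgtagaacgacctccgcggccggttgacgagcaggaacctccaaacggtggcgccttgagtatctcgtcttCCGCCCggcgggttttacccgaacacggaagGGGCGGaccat
Atp5d: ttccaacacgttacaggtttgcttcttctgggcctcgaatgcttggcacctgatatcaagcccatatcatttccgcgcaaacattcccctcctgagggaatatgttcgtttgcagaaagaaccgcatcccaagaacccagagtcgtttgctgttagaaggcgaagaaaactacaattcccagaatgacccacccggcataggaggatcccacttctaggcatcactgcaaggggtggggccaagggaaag
Ndufv3: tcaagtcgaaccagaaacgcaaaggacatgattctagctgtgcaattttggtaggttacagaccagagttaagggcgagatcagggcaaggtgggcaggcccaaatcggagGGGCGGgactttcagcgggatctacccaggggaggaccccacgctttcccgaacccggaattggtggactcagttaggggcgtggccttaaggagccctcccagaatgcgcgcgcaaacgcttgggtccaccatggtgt
Promoters of 250 bases before and 50 after the start were found for 69 of the 96 members, and they were searched on both strands for the letters of 4 factors known to act on respiratory genes. NRF1 letters (GCGC, any base and TGCGC) stood in 17 of the 69 members, or 24.6%, and in 5.19% of all 27025 genes with a promoter. GABPA letters (CCGGAAG) stood in 23.2% of members and 9.93% of all genes, and YY1 letters (AAGATGGC) in 15.9% and 3.19%. The SP1 letters (GGGCGG) were as common in members (40.6%) as in all genes (38.2%). Of the 5 members called lower that had a promoter here, 2 held the SP1 letters, 1 those of GABPA and 1 those of YY1. Of the 3 called higher that had one, 1 held the SP1 letters, 1 those of GABPA and 1 those of YY1. The NRF1 letters were in the promoters of none of the 8 called members searched. A match is a description of the letters and not a bound site.

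The 13 mitochondrial members took 3.19% of reads at the lowest, 3.84% at the median and 6.96% at the highest in *GFP*-NSPCs. In *Dbx2*-NSPCs this mitochondrial share was 4.17%, 6.60% and 8.17%. Most of it came from *mt-Nd1*, *mt-Nd2*, *mt-Nd4* and *mt-Cytb*, and other genes of mitochondrial DNA do not enter it. The share was higher in the *Dbx2* sample of all 8 same-numbered pairs, although the groups overlapped. *GFP* sample 1 lay above the other 7 (3.19% to 4.81%), and *Dbx2* sample 4, the lowest of its group, lay within their range. The mean share was 4.23% ± 1.26 (SD, n = 8) and 6.30% ± 1.22 (SD, n = 8), a ratio of 1.49. Without *GFP* sample 1 the *GFP* mean was 3.84% ± 0.66 (SD, n = 7). Since CPM are shares of a total, a larger mitochondrial share lowers every other gene by the same factor within a sample.

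Of the mitochondrial transcripts, *mt-Nd2*, *mt-Nd4* and *mt-Nd5*, which encode the proton-pumping subunits of the membrane arm of complex I, rose in *Dbx2*-NSPCs. For *mt-Nd2*, the lowest, median and highest CPM were 7411, 11799 and 18008 in *GFP*-NSPCs and 14609, 19948 and 26802 in *Dbx2*-NSPCs. All *Dbx2* samples lay above every *GFP* sample other than number 1, and the log2 fold change was 0.81 (SE 0.17, adjusted p = 0.0022). *mt-Nd4* had 8559, 10571 and 25513 CPM in *GFP*-NSPCs and 15237, 21400 and 27344 CPM in *Dbx2*-NSPCs. The 25513 CPM belonged to *GFP* sample 1, and the next highest *GFP* sample, number 8, had 15583 CPM. Its log2 fold change was 0.76 (SE 0.20, adjusted p = 0.014). *mt-Nd5* ran from 667 over 856 to 1477 CPM and from 1026 over 1357 to 1801 CPM, with a log2 fold change of 0.56 (SE 0.15, adjusted p = 0.014). Each of these transcripts was higher in the *Dbx2* sample of all 8 same-numbered pairs. All were called in samples 5 to 8 alone and none was called in samples 1 to 4 alone, where the log2 fold changes were 0.83 (adjusted p = 0.071), 0.51 (0.32) and 0.43 (0.25), against 0.79, 1.02 and 0.68 in samples 5 to 8 (adjusted p of 3.8e-04, 4.2e-04 and 3.8e-04). Over all alternatives the adjusted p ran from 1.6e-05 to 0.071 for *mt-Nd2*, 4.2e-04 to 0.32 for *mt-Nd4* and 2.6e-04 to 0.25 for *mt-Nd5*. The interaction of transgene and set was called for none of them.

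The other abundant mitochondrial transcripts moved less. *mt-Nd1*, the subunit at the ubiquinone site, had 7984, 8935 and 13286 CPM in *GFP*-NSPCs and 6906, 12415 and 14103 CPM in *Dbx2*-NSPCs, with a log2 fold change of 0.29 (SE 0.14, adjusted p = 0.20). *mt-Cytb*, the cytochrome b of complex III, had 4836, 5881 and 9759 CPM and 3067, 8955 and 10385 CPM, with a log2 fold change of 0.31 (SE 0.21, adjusted p = 0.35). *mt-Co1*, the catalytic subunit of complex IV, had 686, 832 and 1456 CPM and 835, 954 and 1595 CPM, with a log2 fold change of 0.22 (SE 0.15, adjusted p = 0.36). With the replicate number as a block, *mt-Nd1* (adjusted p = 0.048; 0.0042 to 0.86 over all alternatives) and *mt-Co1* (0.030; 0.030 to 0.60) passed and *mt-Cytb* did not. The lowest *Dbx2* value of *mt-Nd1* and of *mt-Cytb* was that of *Dbx2* sample 4. Without that sample both were called, *mt-Cytb* at a log2 fold change of 0.50.

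Relative to *mt-Nd1* within the same sample, the log2 ratio of *mt-Nd2* was -0.18 to 0.56 in *GFP*-NSPCs and 0.57 to 1.08 in *Dbx2*-NSPCs, so that the groups did not overlap. The log2 ratio of *mt-Nd4* to *mt-Nd1* was 0.04 to 0.94 and 0.63 to 1.14, and that of *mt-Nd5* was -3.65 to -3.17 and -3.37 to -2.75. For *mt-Cytb* the ratio was -0.77 to -0.42 in *GFP*-NSPCs and -1.17 to -0.39 in *Dbx2*-NSPCs, and its means differed by 0.02. Within the mitochondrial reads, *mt-Nd1* made up 22.9% ± 2.5 (SD, n = 8) of a *GFP* sample and 18.4% ± 1.3 of a *Dbx2* sample, and *mt-Nd2* 27.7% ± 2.7 and 31.9% ± 2.0. The mean log2 ratio to *mt-Nd1* differed between the groups by 0.52 for *mt-Nd2*, 0.47 for *mt-Nd4*, 0.27 for *mt-Nd5* and -0.07 for *mt-Co1*. Only the ratio of *mt-Nd2* kept the groups apart, and by a narrow gap. These ratios were formed after the values had been seen and were not tested.

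**Figure D2:**
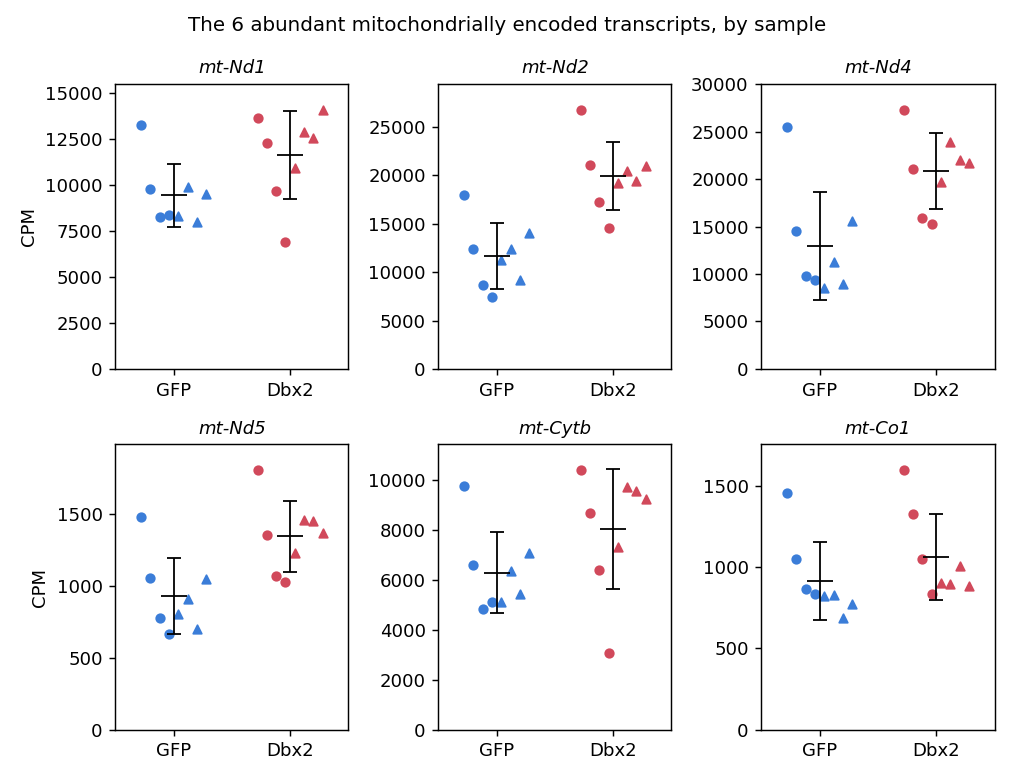
CPM of the 6 abundant mitochondrially encoded transcripts in each of the 8 *GFP*-NSPC (blue) and 8 *Dbx2*-NSPC (red) samples, with circles for samples 1 to 4 and triangles for 5 to 8, and the mean ± SD in black. *GFP* sample 1 is the highest blue circle in every panel, and *mt-Nd2*, *mt-Nd4* and *mt-Nd5* show the widest separation of the groups.

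The remaining 7 mitochondrial genes were found at far fewer reads. *mt-Co2* (6.65 to 13.3 CPM in *GFP*-NSPCs and 3.59 to 17.6 CPM in *Dbx2*-NSPCs), *mt-Co3* (6.17 to 23.1 CPM and 6.46 to 15.2 CPM), *mt-Atp6* (9.33 to 22.2 CPM and 9.48 to 18.3 CPM) and *mt-Nd3* (4.43 to 17.3 CPM and 5.02 to 21.5 CPM) differed between the groups by less than their spread, with adjusted p from 0.69 to 0.86. *mt-Nd6* had 13.7 to 26.6 CPM and 10.8 to 34.8 CPM, *mt-Atp8* did not exceed 3.91 CPM, and *mt-Nd4l* stayed at or below 0.98 CPM. The ends of *mt-Co2*, *mt-Co3*, *mt-Atp6*, *mt-Nd3*, *mt-Nd4l* and *mt-Co1* are each repeated at 100% identity in pseudogenes of chromosome 1. The match covers 294 to 300 bases, and the pseudogenes follow each other between 24612407 and 24616197 (GRCm38, minus strand). The ends of the other 7 mitochondrial genes had no such copy among annotated transcripts, which alone were searched. The end of *mt-Atp8* overlaps *mt-Atp6*, one of the genes copied, so a copy of *mt-Atp8* may have been missed. A read of such a copy cannot be assigned by its sequence. How the authors treated reads with 2 places is not given in the sources used here, so the levels of at least the 6 genes with a copy are uncertain. The stretch of *mt-Co2* that ends 10 bases before the end of its transcript, and the same stretch of its chromosome 1 copy *Gm28661*, are shown in lower case to illustrate this, both from the GENCODE M21 transcripts. Differing bases would be in capitals, and there are 0 among the 60.
mt-Co2: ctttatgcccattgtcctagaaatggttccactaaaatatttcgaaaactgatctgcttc
Gm28661: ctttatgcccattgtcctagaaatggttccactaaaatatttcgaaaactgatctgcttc

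Nuclear complex I held 4 called genes among 36 tested (11.1%, beside 15.8% of all tested genes), 2 higher and 2 lower. Of the 36, 32 had a log2 fold change within 0.3 of 0. *Ndufv3* (ENSMUSG00000024038, chr17:31520115-31531331), a small accessory subunit of the NADH-oxidising module, rose. Its lowest, median and highest values were 202, 225 and 262 CPM in *GFP*-NSPCs and 311, 350.4 and 379 CPM in *Dbx2*-NSPCs, so all *Dbx2* samples lay above all *GFP* samples. The log2 fold change was 0.61 (SE 0.07, adjusted p = 1.4e-05), and it was 0.57 in samples 1 to 4 and 0.65 in samples 5 to 8. *Ndufb7*, an accessory subunit of the membrane arm, had 93.3, 112 and 124 CPM and 111, 134 and 146 CPM. The groups overlapped slightly and the log2 fold change was 0.24 (SE 0.08, adjusted p = 0.046). The call was lost when any of 10 of the 16 samples was left out.

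*Ndufa12* (ENSMUSG00000020022, chr10:94198720-94221443), an accessory subunit at the junction of the peripheral arm, fell by 0.62 on the log2 scale (SE 0.08, adjusted p = 1.2e-05). It had 319, 385 and 458 CPM in *GFP*-NSPCs and 228, 248 and 287 CPM in *Dbx2*-NSPCs, and the groups did not overlap. The end of its transcript has a copy of 99.5% identity over 213 bases in the pseudogene *Gm15920* on chromosome 5, so that its reads may be split. *Ndufs7* (ENSMUSG00000020153, chr10:80249121-80256794), the core subunit that carries the last iron-sulfur cluster before ubiquinone, had 99.5, 127 and 199 CPM and 81.7, 93.6 and 124 CPM. It was lower in the *Dbx2* sample of all 8 same-numbered pairs although the groups overlapped, with a log2 fold change of -0.46 (SE 0.15, adjusted p = 0.048). This call was lost when any of 9 of the 16 samples was left out, with median-of-ratios scaling and under edgeR.

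Among the core subunits of the peripheral arm, the following were not called. *Ndufv1*, which binds NADH, had 142, 162 and 201 CPM in *GFP*-NSPCs and 138, 161 and 187 CPM in *Dbx2*-NSPCs (log2 fold change -0.03, SE 0.08). The 75 kDa subunit *Ndufs1* was at a log2 fold change of 0.04 (SE 0.12), *Ndufs3* at -0.11 (SE 0.12), *Ndufs8* at -0.18 (SE 0.10) and *Ndufv2* at -0.11 (SE 0.10), with adjusted p from 0.28 to 0.85. *Ndufa6*, an accessory subunit with 115 to 177 CPM and 145 to 203 CPM, passed only when the replicate number was a block or in some other alternatives (log2 fold change 0.26; adjusted p = 0.033 with the block and 0.0064 to 0.45 over all alternatives). *Ndufa4*, now counted as a subunit of complex IV, had 38.8 to 125 CPM and 25.8 to 110 CPM with a log2 fold change of -0.28 (SE 0.25, adjusted p = 0.51). Its paralogue *Ndufa4l2* was at or below 0.36 CPM in every sample. Reads of *Ndufa4l2* were thus not detectable above 3 reads in either group.

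In complex II, which oxidises succinate and belongs to the citric acid cycle as well, limma called none of the 4 subunits. None had an unadjusted p under 0.05, and edgeR and DESeq2 called none either. The flavoprotein subunit *Sdha* had 204, 234 and 317 CPM in *GFP*-NSPCs and 226, 259 and 340 CPM in *Dbx2*-NSPCs, a log2 fold change of 0.10 (SE 0.10). The membrane anchors *Sdhc* (64.1 to 126 CPM and 30.5 to 119 CPM) and *Sdhd* (15.0 to 36.3 CPM and 3.23 to 30.5 CPM) had their lowest value in *Dbx2* sample 4. The mean change of the iron-sulfur subunit *Sdhb* was -0.03 on the log2 scale (SE 0.26), but this value is the average of opposite changes in the sets of samples that are described below.

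In complex III, 1 of 9 tested nuclear genes was called (11.1%, beside 15.8% of all tested genes). *Uqcr11* (ENSMUSG00000020163, chr10:80402997-80406830), the smallest subunit, fell by 0.36 on the log2 scale (SE 0.11, adjusted p = 0.024). It had 236, 304 and 342 CPM in *GFP*-NSPCs and 164, 233 and 285 CPM in *Dbx2*-NSPCs, and was lower in the *Dbx2* sample of all 8 pairs although the groups overlapped. edgeR did not call it. Part of its end has a copy of 98.2% identity over 111 bases in the pseudogene *Gm16418* on chromosome 1. *Cyc1*, the cytochrome c1 that hands electrons to cytochrome c, had 137, 209.9 and 261 CPM and 137, 166 and 198 CPM (log2 fold change -0.33, SE 0.12, adjusted p = 0.060). With the replicate block it was called (adjusted p = 0.018; 0.0061 to 0.19 over all alternatives). Among the nuclear genes of the complex, *Uqcrq* had the largest positive change, 0.15 (SE 0.08, adjusted p = 0.22). The core proteins *Uqcrc1* and *Uqcrc2* and the Rieske protein *Uqcrfs1* were at -0.07, -0.16 and -0.10, all with adjusted p of 0.40 or more, and the end of *Uqcrc2* overlaps the gene Pdzd9.

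For complex IV, the nuclear genes were mostly level, and most of the tissue-specific isoforms were near the limit of detection. Of the 13 tested, limma called 1 (7.69%, beside 15.8% of all tested genes), *Cox6a2*, the isoform of heart and skeletal muscle. *Cox6a2* had 0, 2.58 and 4.94 CPM in *GFP*-NSPCs and 0 to 1.61 CPM with a median of 0 in *Dbx2*-NSPCs. That is a difference of a few reads per sample, at a log2 fold change of -1.66 (SE 0.48, adjusted p = 0.023). *Cox6a2* exceeded 3 reads in 6 *GFP* samples and 1 *Dbx2* sample. It passed the filter only through the *GFP* group, where it is high, so its call is weak support for a change. The ubiquitous isoform *Cox6a1* had 617, 695 and 962 CPM and 709, 757 and 961 CPM (log2 fold change 0.12, SE 0.09, adjusted p = 0.41). In the other isoform pairs, *Cox7a2* (495 to 573 CPM and 514 to 608 CPM) and *Cox7a2l* (228 to 281 CPM and 214 to 283 CPM) contrasted with *Cox7a1* at or below 1.41 CPM, and *Cox8a* (341 to 523 CPM and 287 to 552 CPM) with *Cox8b* at or below 0.96 CPM. *Cox6b1* ran from 369 to 539 CPM and from 387 to 591 CPM. The testis isoform *Cox6b2* had a median of 6.99 CPM in *GFP*-NSPCs, with 79.8 CPM in *GFP* sample 1 alone, and 15.2 CPM in *Dbx2*-NSPCs. Its log2 fold change was 0.68 (SE 0.51, adjusted p = 0.40), and 1.13 without *GFP* sample 1, when it was called (adjusted p = 0.037; 0.0023 to 0.88 over all alternatives). It was -0.22 in samples 1 to 4, 1.58 in samples 5 to 8 with no overlap, and -0.18 under edgeR, so its direction was not stable. *Cox7c* had the largest negative change among the abundant genes, -0.39 (SE 0.33, adjusted p = 0.46), which came to -0.03 without *Dbx2* sample 4. Part of the end of *Cox7c* has a copy of 100% identity over 181 bases in the pseudogene *Gm12338*. *Cox4i1*, which the naming rule leaves out, had 382 to 520 CPM and 372 to 496 CPM with a log2 fold change of -0.12 (SE 0.08, adjusted p = 0.31), and its lung and hypoxia isoform *Cox4i2* was at 0 in all 16 samples.

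In complex V, the largest changes were in the catalytic F1 head. *Atp5b* (ENSMUSG00000025393, chr10:128083273-128090391), the beta subunit that holds the catalytic sites, had 736, 845 and 1033 CPM in *GFP*-NSPCs and 382, 520 and 650 CPM in *Dbx2*-NSPCs. All *Dbx2* samples lay below all *GFP* samples, and *Atp5b* fell by 0.73 on the log2 scale (SE 0.09, adjusted p = 2.5e-05). *Atp5d* (ENSMUSG00000003072, chr10:80138632-80145818), the delta subunit of the central stalk, had 400, 435 and 514 CPM and 279, 307 and 321 CPM, again with no overlap. It fell by 0.56 (SE 0.07, adjusted p = 1.2e-05). Groups of 8 did not overlap in 4 of the 91 members, these 2 with *Ndufa12* and *Ndufv3*, and in 3.41% of all tested genes.

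The other F1 subunits were also lower by their estimates. The gamma subunit *Atp5c1* had 179, 234 and 264 CPM in *GFP*-NSPCs and 153, 161 and 244 CPM in *Dbx2*-NSPCs (log2 fold change -0.32, SE 0.12, adjusted p = 0.077). The epsilon subunit *Atp5e* had 196, 269 and 397 CPM and 150.3, 209.6 and 341 CPM (-0.30, SE 0.19, adjusted p = 0.31). Both were lower in the *Dbx2* sample of all 8 pairs, and both were called with the replicate block (adjusted p = 0.0091 and 0.0058; 0.0047 to 0.14 and 0.0058 to 0.49 over all alternatives). The alpha subunit *Atp5a1* was at -0.12 (SE 0.07, adjusted p = 0.25). With the block, 4 of these 5 F1 subunits were called lower, beside 10.9% of all tested genes. Of these 4, *Atp5b* and *Atp5d* lie on chromosome 10, where 37% of genes were called lower without the block, and *Atp5c1* and *Atp5e* were named after their values were seen. The end of *Atp5c1* has a copy of 97.7% identity over 129 bases in the pseudogene Gm8722.

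In the membrane part and stalk of the enzyme, *Atp5f1* (subunit b of the peripheral stalk) had 182, 227 and 298 CPM and 149, 177 and 236 CPM (-0.30, SE 0.11, adjusted p = 0.070). It was called with the block (adjusted p = 0.016; 0.016 to 0.16 over all alternatives). The 3 genes for the identical subunit c of the rotor ring were not called: *Atp5g1* had 202 to 256 CPM and 187 to 241 CPM (-0.11, SE 0.07), *Atp5g3* had 919 to 1186 CPM and 492 to 1286 CPM (-0.18, SE 0.14), and *Atp5g2* had 2.88 to 10.9 CPM and 2.15 to 7.59 CPM (-0.35, SE 0.29). The last 300 bases of *Atp5g2* are repeated at 100% identity in the pseudogenes *Gm10175* and *Gm10231*, so its level is uncertain. Parts of the ends of *Atp5g1* (99.5% over 186 bases), *Atp5f1* (98.5% over 134 bases) and *Atp5l* (100% over 149 bases) also have copies. *Atp5o*, which ties the stalk to the head, was at 0.06 (SE 0.09), and its end is shared by a second gene model of that name. *Atp5j2*, *Atp5k* and *Atp5l*, small subunits of the membrane part, were between -0.10 and 0.04. *Atp5sl* carries the family's symbol but encodes a protein (Dmac2) known for complex I assembly and not a subunit of the synthase. It rose from 9.87, 11.9 and 15.0 CPM to 13.7, 17.2 and 25.1 CPM, with a log2 fold change of 0.53 (SE 0.14, adjusted p = 0.014).

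**Figure D3:**
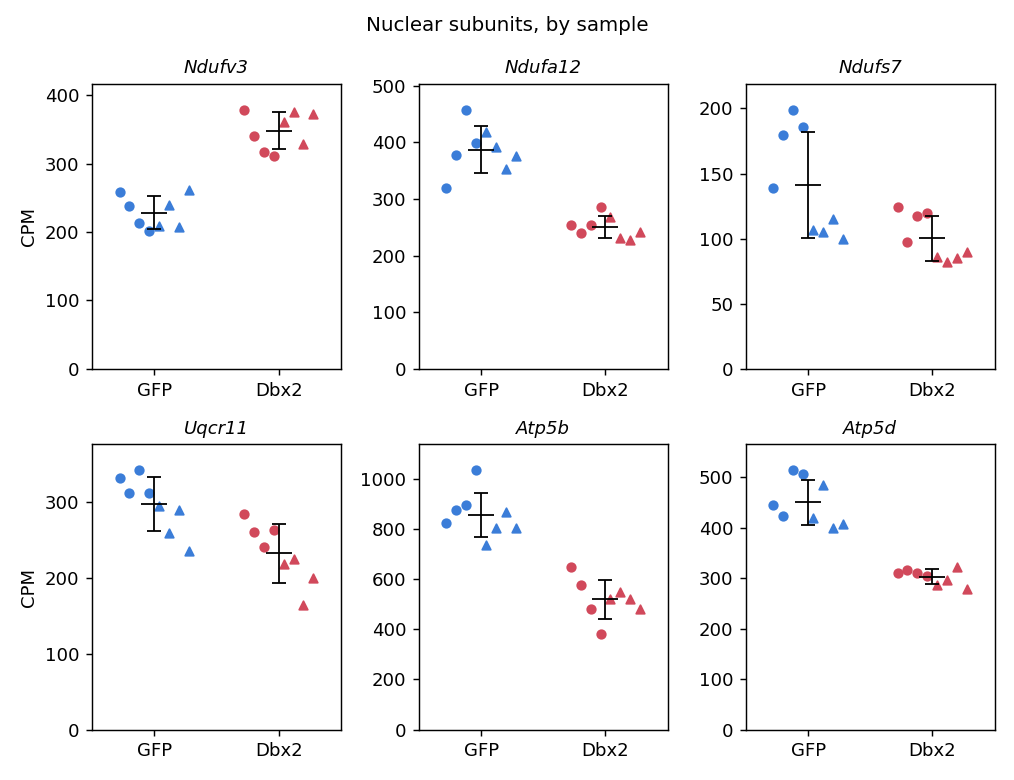
CPM of 6 nuclear subunits in each *GFP*-NSPC (blue) and *Dbx2*-NSPC (red) sample, with circles for samples 1 to 4, triangles for 5 to 8 and the mean ± SD in black. *Ndufv3* is higher, and *Ndufa12*, *Atp5b* and *Atp5d* lower, in all *Dbx2*-NSPC samples than in any *GFP*-NSPC sample, whereas the groups meet for *Ndufs7* and *Uqcr11*.

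The 5 subunits called lower in complexes I, III and V had a position in common that the choice by name did not use. All 5 lie on chromosome 10, and they are all of the tested members of that chromosome. Its 613 tested genes had a median log2 fold change of -0.37, with 37% called lower and 3.59% called higher, whereas the medians of the other 19 chromosomes with at least 50 tested genes lay between -0.09 and 0.09. The median of chromosome 10 was -0.26 in samples 1 to 4 and -0.47 in samples 5 to 8. Against the 50 nearest tested genes (25 on each side), *Ndufa12* was at -0.62 and its neighbours at -0.66. *Uqcr11* was at -0.36 with neighbours at -0.55, *Ndufs7* at -0.46 with neighbours at -0.41, *Atp5d* at -0.56 with neighbours at -0.35 and *Atp5b* at -0.73 with neighbours at -0.41. *Atp5d*, *Ndufs7* and *Uqcr11* lie within 268199 bases, so their neighbours are largely the same genes.

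When each gene was set against the median of its neighbours in each sample, *Atp5b* remained called lower by limma (log2 difference -0.29, adjusted p = 0.045). *Atp5d* (-0.22, adjusted p = 0.073) did not remain called, so these 2 lay close to the threshold on either side. *Ndufs7* (-0.03, adjusted p = 0.94), *Ndufa12* (0.025, adjusted p = 0.88) and *Uqcr11* (0.20, adjusted p = 0.23) did not remain called either. In that fit 13.9% of all genes were called (7.85% higher and 6.09% lower), and among the nuclear members *Ndufv3*, *Ndufb7*, *Ndufa6* and *Atp5sl* were called higher and *Atp5b*, *Cox6a2* and *Cyc1* lower. Outside chromosome 10, 4 of 74 tested nuclear members (5.41%) were called, 1 lower and 3 higher, beside 14.5% of all genes of the other chromosomes (6.28% lower and 8.26% higher). Across the 79 nuclear members, the correlation of a gene's log2 fold change with its neighbours' median was 0.46 (Pearson) and 0.34 (Spearman). Over the 74 members off chromosome 10 it was 0.27 and 0.20. These are correlations across genes of the same 16 libraries, and neighbours are shared between members. The part that the regional shift of chromosome 10 has in the change of these subunits was not tested beyond this comparison with the neighbours.

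**Figure D4:**
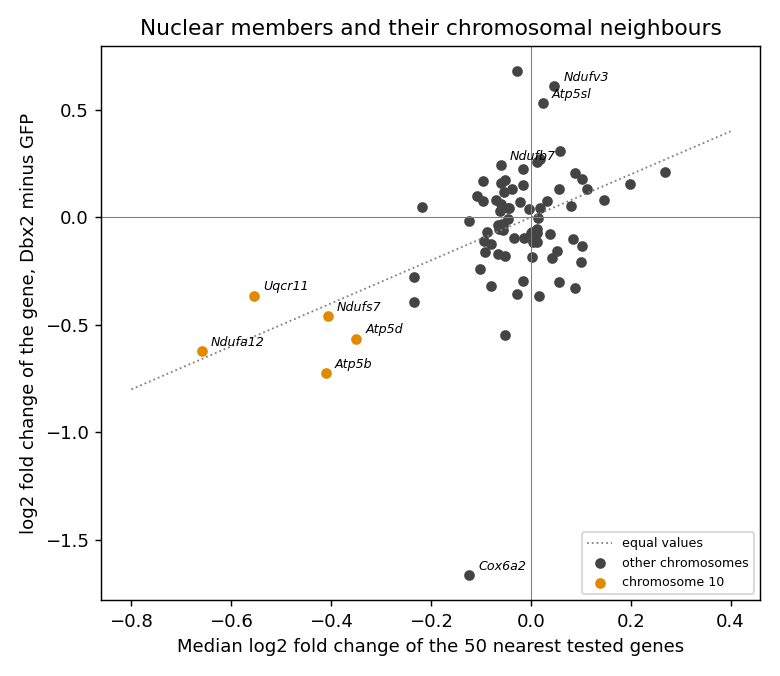
For each tested nuclear member, the median log2 fold change of its 50 nearest tested genes (horizontal axis) and its own log2 fold change, *Dbx2*-NSPCs minus *GFP*-NSPCs (vertical axis); the dotted line marks equal values. The 5 orange points of chromosome 10 lie at neighbour medians from -0.66 to -0.35, apart from most other members, while *Ndufv3*, *Atp5sl*, *Ndufb7* and *Cox6a2* have neighbour medians between -0.12 and 0.05.

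Changes also differed between samples 1 to 4 and samples 5 to 8, as did that of *Dbx2* itself, given above. In the first set alone, limma called 8 members lower and 2 higher, beside 7.37% of all genes lower and 8.19% higher (15.6% in all). In the second it called 9 lower and 19 higher, beside 11.7% and 11.5% (23.2% in all). Of the members called, 6 were called in the same direction in both sets and 1 in opposite directions. How many of all tested genes were called in both sets was not counted, so these numbers describe the members only. The interaction of transgene and set passed an adjusted p of 0.05 for 3 members, beside 9.44% of all tested genes. It passed for 7 members with the replicate block, a fit for which the share of all genes was not counted. *Sdhb* (chr4:140961203-140979193) had 247 to 520.5 CPM in *GFP* samples 1 to 4 and 479.8 to 539.7 CPM in *Dbx2* samples 1 to 4. In samples 5 to 8 it had 315 to 367 CPM and 173 to 203 CPM, so that the direction turned. Its log2 fold change was 0.72 in the first set and -0.79 in the second, a difference of -1.50 (SE 0.21, adjusted p = 1.7e-05). The 50 nearest genes had medians of 0.79 and -0.85.

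*Atp5h* (chr11:115415689-115419962), subunit d of the peripheral stalk of complex V, had 261 to 340.0 CPM in *GFP*-NSPCs and 231 to 298 CPM in *Dbx2*-NSPCs of the first set. In the second set it had 211 to 248 CPM and 339 to 373 CPM, with no overlap. The log2 fold changes were -0.19 and 0.62, a difference of 0.81 (SE 0.14, adjusted p = 1.6e-04), and its neighbours had medians of -0.06 and 0.55. The last 300 bases of *Atp5h* have a copy of 99.7% identity in the pseudogene Gm10250 on chromosome 15, so that its reads may be split. *Ndufa10* (chr1:92439010-92473860), an accessory subunit of complex I, had log2 fold changes of -0.10 and 0.36, a difference of 0.46 (SE 0.12, adjusted p = 0.017), with neighbours at 0.03 and 0.19. When each gene was set against its neighbours, the interaction was called by limma for 0 of 79 nuclear members, with 9 at an unadjusted p under 0.05. The shares of all genes in this fit were not counted, so these counts cannot be compared with them. Whether these sets are the pairs of cell lines is not given by the labels, and the part of the regional shifts in these differences was not tested.

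**Figure D5:**
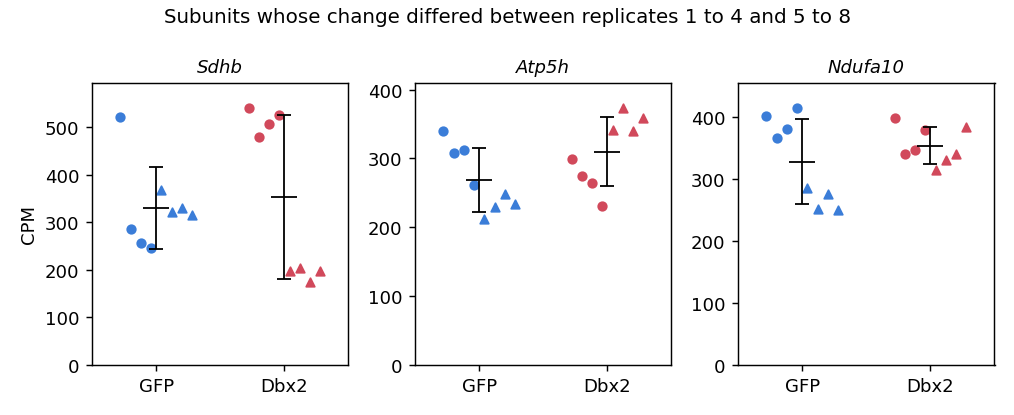
CPM of *Sdhb*, *Atp5h* and *Ndufa10* in each *GFP*-NSPC (blue) and *Dbx2*-NSPC (red) sample, with circles for samples 1 to 4, triangles for 5 to 8 and the mean ± SD of all 8 in black. For *Sdhb* the red circles (479.8 to 539.7 CPM) and red triangles (173 to 203 CPM) fall on opposite sides of most blue points.

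By set, the median log2 fold change of nuclear complex I genes was -0.13 in samples 1 to 4 and 0.14 in samples 5 to 8, that of complex IV -0.06 and 0.11, and that of complex V -0.19 and -0.07. Over all 91 members, 27 were positive in both sets, 34 negative in both and 30 opposite, a split that was not counted over all tested genes. The mitochondrial share was raised in both sets, from a mean of 4.51% to 6.02% in samples 1 to 4 and from 3.95% to 6.58% in samples 5 to 8. In samples 5 to 8 all *Dbx2* samples (5.93% to 6.94%) lay above all *GFP* samples (3.30% to 4.81%). Within samples 1 to 4 the ranges overlapped (4.17% to 8.17% and 3.19% to 6.96%).

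Single libraries stood apart among the members. Sample 1 of each group held the highest value of 23 (*GFP*) and 29 (*Dbx2*) of the 85 members that averaged 10 CPM or more, and the lowest values were most often those of *Dbx2* sample 4 (21), *GFP* sample 8 (17) and *GFP* sample 5 (13). In *Dbx2* sample 4, 10 of 74 nuclear members lay at least 1 log2 unit below the median of *Dbx2* samples 1 to 3, whereas no other sample had more than 1 such member against its own set. *Cox7c* was at 76.4 CPM there and at 432 to 728 CPM in *Dbx2* samples 1 to 3, *Ndufa1* at 24.8 CPM and 77.8 to 107 CPM, and *Ndufb3* at 49.5 CPM and 130.2 to 226 CPM. *Sdhd*, *Sdhc*, *Atp5j*, *Ndufa4*, *Uqcrfs1*, *Cox7b* and *Atp5g3* were the other 7. Over the 74 members, the deviation of this library had a Spearman correlation of 0.44 with the GC content of the last 300 bases of the transcript and of 0.06 with transcript length. Over 8573 genes of at least 10 CPM the correlations were 0.17 and 0.13, and 5.06% of those genes were lower by 1 log2 unit or more, beside 13.5% of the members. Without *Dbx2* sample 4, 6 members were called lower and 8 higher, beside 7.58% and 8.23% of all tested genes (15.8% in all).

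Other genes of mitochondrial biology were taken from 5 lists. Their counts are to be read against the 15.8% of all tested genes that were called (8.03% higher and 7.78% lower) and the 10.9% called lower with the replicate block. Of 50 tested assembly factors, 3 rose and 1 fell (8% in all), with a median log2 fold change of 0.01. The complex IV assembly factors *Cox14* (140.0, 164 and 209 CPM against 194, 214 and 223 CPM; 0.35, adjusted p = 0.0044), *Pet100* (45.6, 57.6 and 72.9 CPM against 63.2, 72.6 and 82.3 CPM; 0.36, adjusted p = 0.014) and *Higd2a* (0.23, adjusted p = 0.039) rose. *Ndufaf4*, needed to assemble complex I, fell by 0.31 (adjusted p = 0.021). *Higd2a* and *Cox14* were higher in the *Dbx2* sample of all 8 pairs. Of 27 tested genes that copy or express mitochondrial DNA, 1 rose and 3 fell (14.8% in all, median -0.13). *Lrpprc*, which stabilises mitochondrial messenger RNAs and aids their polyadenylation, had 176, 218 and 309 CPM and 258, 329.7 and 404 CPM (0.51, SE 0.12, adjusted p = 0.0070).

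The genes of that list that fell were *Tfam*, the packaging and transcription factor of mitochondrial DNA (40.4, 53.9 and 66.2 CPM against 25.1, 38.6 and 48.6 CPM; -0.50, SE 0.13, adjusted p = 0.015), the RNA-binding protein *Grsf1* (-0.36, adjusted p = 0.0074) and the helicase *Supv3l1* (-0.40, adjusted p = 0.038). *Tfam* and *Supv3l1* lie on chromosome 10, with neighbour medians of -0.19 and -0.22. Among 18 tested regulators of mitochondrial biogenesis, 2 fell (11.1%, median -0.26): *Tfam* again, and *Esrrb*, at a median of 5.54 CPM in *GFP*-NSPCs and at 0 to 4.66 CPM in *Dbx2*-NSPCs. With the replicate block, 4 of the 18 (22.2%) were called lower, beside 10.9% of all tested genes. The coactivator *Ppargc1a* was at -0.10 (adjusted p = 0.54) and *Nrf1*, whose letters were searched above, at -0.33 (adjusted p = 0.067).

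Of 24 tested genes of the citric acid cycle and pyruvate dehydrogenase, 1 rose and 3 fell (16.7% in all, median -0.15), and with the replicate block 6 (25%) were called lower, beside 10.9% of all tested genes. *Pdk3*, a kinase that switches pyruvate dehydrogenase off, had 6.45, 11.6 and 13.6 CPM and 16.4, 20.2 and 22.1 CPM, with no overlap (0.81, SE 0.15, adjusted p = 7.5e-04). *Idh2* fell by 0.48 (adjusted p = 0.0094), the pyruvate dehydrogenase subunit *Pdhb* by 0.26 (adjusted p = 0.031) and the citrate synthase *Cs* by 0.53 (adjusted p = 0.035). *Cs* lies on chromosome 10 with neighbours at -0.46. Of 32 tested electron carriers and inner membrane transporters, 2 rose and 1 fell (9.38% in all, median -0.10). These were the coenzyme Q kinases *Coq8a* (at or below 2.43 CPM) and *Coq8b* (0.49, adjusted p = 0.032), and the mitochondrial phosphate carrier *Slc25a3*, which fell by 0.47 (498, 627 and 762 CPM against 361, 428 and 597 CPM; adjusted p = 0.0058) among chromosome 10 neighbours at -0.66. Cytochrome c itself, *Cycs*, was at -0.12 (adjusted p = 0.61).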

How the data were processed

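The authors trimmed single-end QuantSeq reads, which come from transcript ends, with bbduk, aligned them with STAR 2.5.0a to GRCm38 with Ensembl annotation, and deposited CPM for 30386 genes and 16 samples, with 0 columns left unmapped. The counting tool, strand and treatment of reads with several places are not given in the sources used here. The deposited CPM were whole multiples of 1 read for 100% of values (within 0.1 of a read), which gave the totals. The study's own model held the cell line, which the labels do not give, so it was not fitted.

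The 12533 genes above 1 CPM in 4 or more samples were tested with limma 3.58.1 in R 4.3.3 (lmFit, eBayes with trend, two-sided) on log2(CPM + 0.5), a scale that understates changes of low genes. Adjustment was by Benjamini-Hochberg over all of them, with calls at 0.05. Samples 1 to 4 and 5 to 8 were compared by an interaction term. Same-numbered samples are taken as pairs because the labels number them alike. The deviations of every pair from their group means correlated at 0.152 to 0.303, although within each set of 4 at only -0.007 to 0.119. Other numbers of the same set correlated at means of 0.161 to 0.242. A *GFP* sample matched its own number best in 4 of 8 cases. The values thus give little sign of pairing beyond the set. How many of all tested genes went the same way in all 8 pairs was not counted. As alternatives, the pseudocount was 0.1 or 1, the filter was changed or left out, scaling was by median of ratios, mitochondrial DNA and *Gm42418* (5.43% to 8.76% of reads) left the total, edgeR 4.0.16 and DESeq2 1.42.0 were run on the whole reads, the replicate block or the set entered the model, each set was fitted alone, and each sample was left out. The comparison of each gene with its 50 nearest neighbours was chosen after seeing the data. The limma fits without and with the replicate block, edgeR, DESeq2 and the comparison with neighbours were tried on simulated data. The interaction term, the set covariate and the fits of each set alone were not.

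Positions came from GENCODE M21. Copies were sought with BLAST 2.17.0 among the GENCODE M21 transcripts, not in the whole genome (last 300 bases, at least 97% identity over 100 bases). The search found one for 24 members, and the text names the copies of only some of these. The members and lists were chosen with earlier results of these data known. Genes are named by rule: all mitochondrially encoded genes, called members of at least 10 CPM (up to 5 per complex and direction), the largest changes per complex, isoform pairs and up to 3 called genes per list and direction; others, such as *Sdhb*, *Atp5h*, the genes called with the block and those low in *Dbx2* sample 4, were named after their values were seen. P-values measure the spread between these samples, which are repeated cultures of a few lines.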

Additional observations from a re-analysis of the deposited data

Results flagged for a closer look

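Among the genes named here and the mitochondrial share, 122 groups of 8 values were checked for a highest or lowest sample far from its neighbours relative to the group's range, and 14 were found; chance gives about 1 in 20 groups. *GFP* sample 1 was the extreme in 9 of them. It had 6.96% of its reads from the mitochondrial members, 13286 CPM of *mt-Nd1*, 25513 CPM of *mt-Nd4*, 9759 CPM of *mt-Cytb* and 1456 CPM of *mt-Co1*. It also had 962 CPM of *Cox6a1*, 79.8 CPM of *Cox6b2*, 213 CPM of *Higd2a* and 520.5 CPM of *Sdhb*, each the highest of the *GFP* samples.

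*Dbx2* sample 1 was the highest of its group for *Cox6a1* (961 CPM) and *Cox7a2* (608 CPM). *Dbx2* sample 4 was the lowest for *Cox7c* (76.4 CPM), *Dbx2* sample 3 the highest for *Atp5sl* (25.1 CPM) and *GFP* sample 8 the lowest for *Cox4i1* (382 CPM). The change between *Dbx2*-NSPCs and *GFP*-NSPCs differed between samples 5 to 8 and samples 1 to 4, by the interaction term of limma with Benjamini-Hochberg adjustment, for *Sdhb* (-1.50 on the log2 scale), *Atp5h* (0.81) and *Ndufa10* (0.46).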

How the results depend on the processing

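Without a block, 6 of the 91 tested members were called lower and 6 higher, beside 7.78% and 8.03% of all tested genes. The replicate block and the set covariate each gave 10 lower, beside 1364 and 1533 of the 12533 tested genes. Setting each gene against its neighbours gave 3 lower among the nuclear members, beside 6.09% of all genes. Leaving mitochondrial DNA and *Gm42418* out of the total gave 3 higher, beside 1110 of 12520 genes. This fall to 3 follows from its construction, since mitochondrial genes then drop out. Samples 1 to 4 alone gave 2 higher and samples 5 to 8 alone 19, beside 8.19% and 11.5% of all tested genes. The cause was not tested. Leaving out 1 sample gave 5 to 9 lower and 5 to 9 higher, beside 816 to 1128 and 868 to 1082 of the 12533 tested genes. The interaction with the set was called for 3 members, beside 9.44% of all tested genes. It was called for 7 with the replicate block, for 0 against the neighbours, and for 3 to 6 with 1 sample left out. The 6 came without *Dbx2* sample 1, and the shares of all genes were not counted for these other fits. Signs turned for *Ndufa12* (0.025), *Uqcr11* (0.20) and *Slc25a3* (0.17) against their neighbours, and for *Sdhb* in samples 1 to 4 alone (0.72). edgeR called 10 of the 12 members called by limma and no other, and DESeq2 all 12 and *Ndufa6*. Without a filter, *Ndufb7*, *Ndufs7* and *mt-Nd4* were lost. The difference in mitochondrial share was 2.07 percentage points, and 2.20 without *Gm42418* in the total. Genes near 1 CPM rest on a few reads, and their fold changes are imprecise. Over the named genes and all alternatives, 1501 values kept direction and side of the threshold, 125 lost their call, 41 gained one and 39 changed sign without a call.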
